A study of Mus musculus with 9 samples.

Results

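The genes described here encode axon guidance cues and the receptors that read them. They are 43 genes listed by name in 4 subgroups: Slit/Robo (5 genes), netrin (5), semaphorin/plexin (15, neuropilins included) and Eph/ephrin (18). A gene was measured through probe sets whose only gene symbol in the platform annotation was that gene, and among these the probe set was chosen by its mean log2 signal over all 9 arrays, the highest being kept. That left 42 of the 43 among 18193 genes tested, since Ephb2 had no such probe set. The means that chose the probe sets lay between 2.35 and 8.76 on the log2 scale. They are used again only in the setting below that drops genes of low signal.

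The study measured RNA of mouse pluripotent cells, all labelled C57BL/6, on Affymetrix Mouse Genome 430 2.0 arrays. Of 9 cultures, 3 were epiblast stem cells (EpiSCs) given vehicle, 3 were EpiSCs given IWP2 and 3 were embryonic stem cells (ESCs). EpiSCs are counted as primed, since they are like the epiblast of the implanted embryo, and ESCs as naive. IWP2 inhibits Porcupine, the acyltransferase without which Wnt proteins are not secreted. Both EpiSC groups grew in N2B27 containing Activin A (20 ng/ml) plus bFGF (12 ng/ml), on plates coated with gelatine and serum. For ESCs the N2B27 contained LIF (1000 U/ml) plus Wnt3a (250 ng/ml) and the plates gelatine, so that cell type and medium differed together. The sources used here give neither the dose and duration of IWP2 nor the cell lines. The labels call the cultures biological replicates without saying how they were separated, so p-values measure the spread between these cultures.

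In the nervous system these molecules steer growing axons. Slits are secreted repellents bound by Robo receptors, netrins attract through Dcc and repel through Unc5 receptors, and semaphorins signal through plexins, the secreted class 3 mostly with a neuropilin as co-receptor. Ephrins are cell-bound ligands, class A held by a lipid anchor and class B by a transmembrane segment, and Eph receptors and ephrins signal in both directions between touching cells. In the early embryo the same families serve the floor plate, the endoderm, forming vessels and the sorting of cells into separate layers.

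Replicate arrays correlated at 0.997 to 0.998 over all probe sets, and array medians lay between 5.22 and 5.26. The SD of a measured member within a group of 3 arrays had a median of 0.097 log2. All 7 naive markers listed, Zfp42 and Klf4 among them, were higher in ESCs than in vehicle EpiSCs, and 6 of 7 EpiSC markers, Fgf5 and Otx2 among them, were lower. Of the sex chromosome genes measured, ESC minus vehicle was -7.54 to -5.21 for the 3 Y-linked ones and 3.93 for Xist, so the cell types also differed there. Within EpiSCs, Xist rose by 1.59 with IWP2 (limma adjusted p = 3.36e-05), and the Y-linked genes were not called (-0.11 to 0.23). A lower quartile of 3.72 over all values serves below as the floor of the array. A difference against a group near this floor may be larger than measured.

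With IWP2 more guidance genes fell than rose, Slit2, Sema6d, Ntn1, Nrp1 and Plxna2 by the largest amounts. Of the 42 measured members, 19 fell and 7 rose with IWP2 (limma adjusted p under 0.05 over all genes), and 16 were not called. Over all genes tested 33.5% were called, 16.8% lower and 16.6% higher. By at least 2-fold, 8 members fell and 2 rose, against 2.81% and 0.901% of all genes. The median difference of the members was -0.27, and that of all genes was 0.03. Since the genes were listed with results of these arrays known, these shares describe the list and test nothing about it.

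Against vehicle EpiSCs, ESCs were lower in 27 members and higher in 6, with 9 not called. Over all genes 66.6% were called, 27.9% lower and 38.7% higher. By at least 2-fold, 17 members were lower and 2 higher, where the shares of all genes were 9.63% and 6.87%, and the median was -0.56 for the members and 0.12 for all genes. Against IWP2-treated EpiSCs, ESCs were lower in 16 members and higher in 12, with 14 not called and medians of 0.01 for the members and 0.10 for all genes. There 62.1% of all genes were called, 26.9% lower and 35.2% higher. By at least 2-fold, 11 members were lower and 3 higher, where the shares of all genes were 9.4% and 7.87%. The comparisons share arrays, so a member's values in them are given side by side and are not independent.

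**Figure D1:**
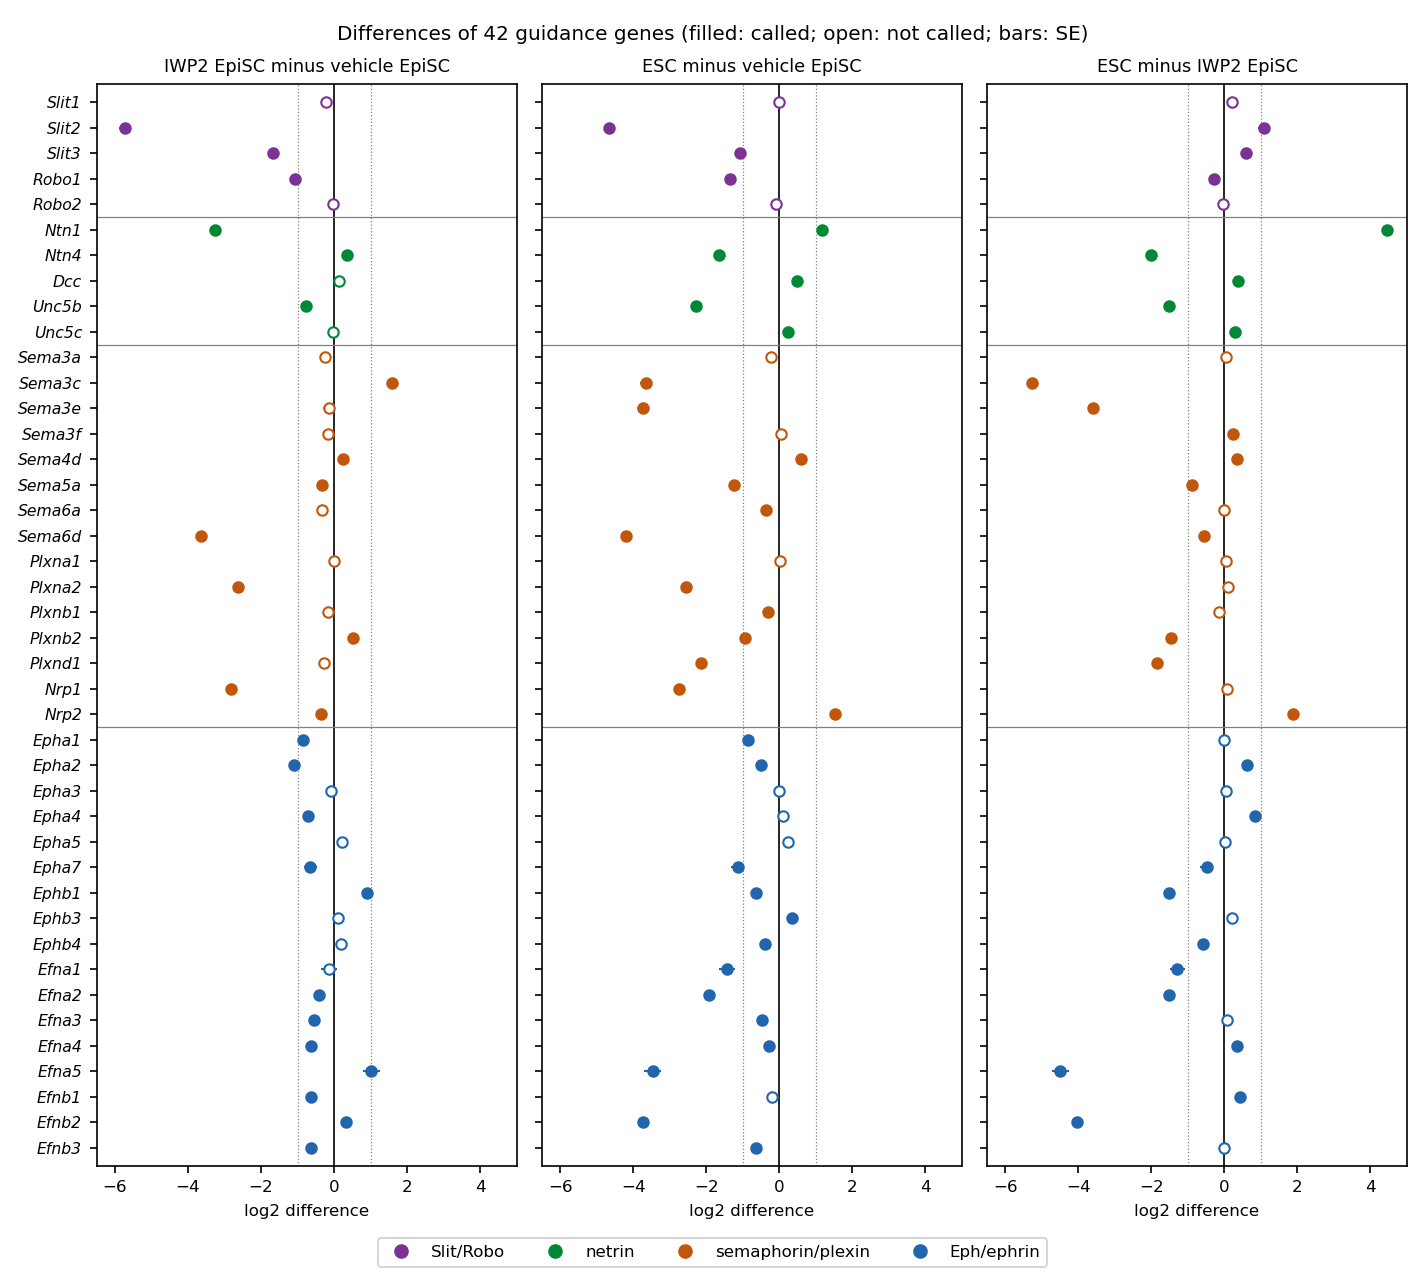
Log2 differences of the 42 measured members in the 3 comparisons, 1 row per gene, with bars for the standard error and colours for the 4 subgroups; filled points were called by limma and dotted lines mark a 2-fold difference. With IWP2 the largest fall is Slit2 at -5.72 and the largest rise Sema3c at 1.60, and in ESCs against IWP2-treated EpiSCs Ntn1 (4.44) and Sema3c (-5.26) lie farthest apart.

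The 5 members that fell by at least 2 log2 with IWP2 were Slit2, Sema6d, Ntn1, Nrp1 and Plxna2. The windows just upstream of the starts of such members are shown because these genes went down together. RefSeq windows on GRCm38.p6 were found for 4 of these 5 (all but Ntn1), and for 35 of the 42 members. Each line gives the 250 bases before a listed start, 5′ to 3′, with CpG dinucleotides in capitals.
Slit2, chr5:47982905-47983154, plus strand: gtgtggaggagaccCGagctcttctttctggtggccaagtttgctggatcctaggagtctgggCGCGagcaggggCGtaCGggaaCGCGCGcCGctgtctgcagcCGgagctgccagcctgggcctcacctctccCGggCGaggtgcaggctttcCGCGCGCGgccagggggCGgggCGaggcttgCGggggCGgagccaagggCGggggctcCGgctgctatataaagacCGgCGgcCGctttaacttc
Plxna2, chr1:194619579-194619828, plus strand: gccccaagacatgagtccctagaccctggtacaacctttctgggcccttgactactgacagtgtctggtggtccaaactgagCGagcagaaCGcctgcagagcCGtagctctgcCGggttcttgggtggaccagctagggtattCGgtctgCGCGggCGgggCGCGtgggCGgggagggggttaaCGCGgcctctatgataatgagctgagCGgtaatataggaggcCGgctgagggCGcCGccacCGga
Nrp1, chr8:128358823-128359072, plus strand: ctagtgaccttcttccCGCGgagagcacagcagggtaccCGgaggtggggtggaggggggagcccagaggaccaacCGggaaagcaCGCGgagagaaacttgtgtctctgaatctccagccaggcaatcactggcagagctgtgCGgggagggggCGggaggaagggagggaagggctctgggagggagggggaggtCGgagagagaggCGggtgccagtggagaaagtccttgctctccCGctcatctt
Sema6d, start 1, chr2:124089719-124089968, plus strand: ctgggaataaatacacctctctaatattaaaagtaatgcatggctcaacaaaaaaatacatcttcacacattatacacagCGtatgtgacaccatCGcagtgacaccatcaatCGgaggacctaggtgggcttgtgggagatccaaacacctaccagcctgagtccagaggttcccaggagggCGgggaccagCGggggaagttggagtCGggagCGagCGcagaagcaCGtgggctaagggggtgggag
Sema6d, start 2, chr2:124653331-124653580, plus strand: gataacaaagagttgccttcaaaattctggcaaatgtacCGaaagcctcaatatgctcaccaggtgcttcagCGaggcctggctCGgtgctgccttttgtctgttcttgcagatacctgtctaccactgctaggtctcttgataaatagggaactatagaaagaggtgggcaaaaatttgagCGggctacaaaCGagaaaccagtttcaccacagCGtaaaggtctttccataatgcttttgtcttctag
The Slit2 window holds 25 CpG, that of Plxna2 18, that of Nrp1 11 and those of Sema6d 9 and 6, where the median is 12 over the 18109 windows of genes tested and 16 over the 44 windows of members. On both strands, 4 motifs were searched, none of which contains another: CTTTGA and CTTTGT, cores recognised by Tcf/Lef factors of the Wnt pathway, and TGTTTAC and TGTTTGC, cores recognised by forkhead factors. Of these, 1 match was found in the 5 windows, a CTTTGT 246 bases before the second start of Sema6d. Of the windows of genes tested, 12% hold CTTTGA, 14.1% CTTTGT, 2.61% TGTTTAC and 3.69% TGTTTGC. A missing match says only that these letters are not in this window.

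In the Slit/Robo subgroup, 3 of 5 members fell with IWP2 and 0 rose, all 3 by at least 2-fold, with a subgroup median of -1.08. Of all genes, 16.8% fell with IWP2, and 2.81% by at least 2-fold. Slit2, a Slit of the floor plate, was the member with the largest fall. Its log2 signal was 9.98, 9.94 and 10.07 on the vehicle arrays, 4.36, 4.58 and 3.88 on the IWP2 arrays, and 5.19, 5.30 and 5.55 on the ESC arrays. The 3 groups did not overlap, with vehicle high and IWP2 lowest. The difference was -5.72 ± 0.158 (SE, n = 3 per group, limma adjusted p = 7.6e-09) with IWP2, which is 52.8-fold lower, and -4.65 for ESC minus vehicle (limma adjusted p = 2.94e-09). ESCs were 1.07 ± 0.158 above IWP2-treated EpiSCs (limma adjusted p = 0.000181), and this last value was 0.51 as the mean of the 3 probe sets and 0.50 once 32 had been added to the linear signals (an offset of 32).

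Slit3 followed the same order at smaller size. Its signal was 6.11, 5.97 and 6.20 with vehicle, 4.57, 4.45 and 4.26 with IWP2, and 5.06, 4.95 and 5.05 in ESCs. No group overlapped another. Slit3 fell by 1.67 ± 0.089 (SE) with IWP2 (limma adjusted p = 6.57e-07), and by 0.91 with an offset of 32, and ESC minus vehicle was -1.07 (-0.64 with that offset). Slit1 was called in none of the 3 comparisons with the probe set used and all arrays, at means of 5.49, 5.26 and 5.47 in vehicle EpiSCs, IWP2-treated EpiSCs and ESCs. Without vehicle replicate 3, and from the compared arrays alone, its ESC minus IWP2 difference of 0.21 was called. Its other probe set gave -0.43 for IWP2 minus vehicle (limma adjusted p = 0.0176) and -0.37 for ESC minus vehicle (limma adjusted p = 0.0171). The mean of both probe sets gave -0.33 with IWP2 and was called (limma adjusted p = 0.022).

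Both Slit genes that fell share a feature that the signal did not choose. Each contains, in the same orientation, a hairpin of the microRNA miR-218, Mir218-1 in Slit2 and Mir218-2 in Slit3, and both give the same 21-base mature form in RefSeq on GRCm38.p6. It lies at chr5:48223966-48223986 in Slit2 and at chr11:35616840-35616860 in Slit3, on the plus strand, and is shown with its seed (bases 2 to 8) in capitals.
mmu-miR-218-5p: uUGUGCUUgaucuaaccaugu
Levels of this microRNA are not analysed here, and other microRNAs lie within the spans of Robo2, Ntn1, Plxnb2, Nrp1, Epha4 and Ephb1.

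The Slit receptor gene Robo1 read 9.26, 8.94 and 9.19 with vehicle, 7.89, 8.04 and 8.22 with IWP2, and 7.82, 7.75 and 7.74 in ESCs. Vehicle EpiSCs were above both other groups without overlap, and the ESC values lay just under those with IWP2. Robo1 fell by 1.08 ± 0.101 (SE) with IWP2 (limma adjusted p = 3.26e-05) and was 1.36 lower in ESCs than with vehicle. As the mean of its 3 probe sets the differences were -0.43 and -0.33. The step from IWP2 to ESC (-0.28, limma adjusted p = 0.0368) was not called without IWP2 replicate 2 (-0.28) or 3 (-0.19), without ESC replicate 1 (-0.30), 2 (-0.27) or 3 (-0.26), or with cyclic loess (-0.23), and the mean of the probe sets turned it to 0.09. Another Robo1 probe set was called for this step in the other direction, at 0.46 (limma adjusted p = 0.0064 among 34945 probe sets). Robo2 stayed under the floor, at 2.31 to 2.39 in the group means, and was called nowhere.

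The netrin subgroup split. With IWP2, 2 of 5 members fell and 1 rose, the other 2 were not called, and the median was -0.04. All 5 were called for ESC minus vehicle, 3 higher and 2 lower. Of all genes, 33.5% were called with IWP2 and 66.6% for ESC minus vehicle. Ntn1, the netrin of the floor plate, read 7.62, 7.63 and 7.81 with vehicle, 4.24, 4.34 and 4.69 with IWP2, and 8.94, 8.82 and 8.84 in ESCs. It was thus low with IWP2 and high in the other 2 groups, highest in ESCs, with no overlap. Ntn1 fell by 3.26 ± 0.110 (SE) with IWP2 (limma adjusted p = 2.64e-08), while ESC minus vehicle was 1.18 (limma adjusted p = 6.32e-06) and ESC minus IWP2 was 4.44 (limma adjusted p = 3.2e-10), a 21.7-fold difference. With an offset of 32, IWP2 minus vehicle was -2.15, ESC minus vehicle 1.07 and ESC minus IWP2 3.22. Its second probe set had group means of 3.53 to 3.86, near the floor, so the mean of both gave -1.47 with IWP2, 0.75 for ESC minus vehicle and 2.22 for ESC minus IWP2.

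Ntn4, a netrin of basement membranes, went the other way. Its signal was 5.52, 5.58 and 5.63 with vehicle, 5.88, 5.98 and 5.95 with IWP2, and 4.12, 3.71 and 3.93 in ESCs, with ESCs lowest and no overlap. The rise with IWP2 was 0.36 ± 0.094 (SE, limma adjusted p = 0.015). It was not called without vehicle replicate 1 (0.33) or IWP2 replicate 2 (0.34), or as the mean of both probe sets (0.16), and was 0.23 with an offset of 32. ESC minus vehicle was -1.66 (limma adjusted p = 1.42e-07), or -0.87 as that mean and -0.76 with an offset of 32.

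Of the netrin receptors, Unc5b, which mediates repulsion and also acts in vessels, read 8.48, 8.54 and 8.52 with vehicle, 7.75, 7.79 and 7.66 with IWP2, and 5.91, 6.49 and 6.27 in ESCs. The groups stepped down in that order without overlap. The differences from vehicle were -0.78 ± 0.121 (SE, limma adjusted p = 0.000845) with IWP2 and -2.29 in ESCs (limma adjusted p = 7.68e-08), and the second probe set gave -0.91 and -2.40. Dcc, the attractive receptor, and Unc5c were not called with IWP2 (0.13 and -0.04) and were slightly higher in ESCs than with vehicle (0.49 and 0.24). With an offset of 32 these became 0.29 and 0.15, and Dcc was 0.26 as the mean of its probe sets.

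**Figure D2:**
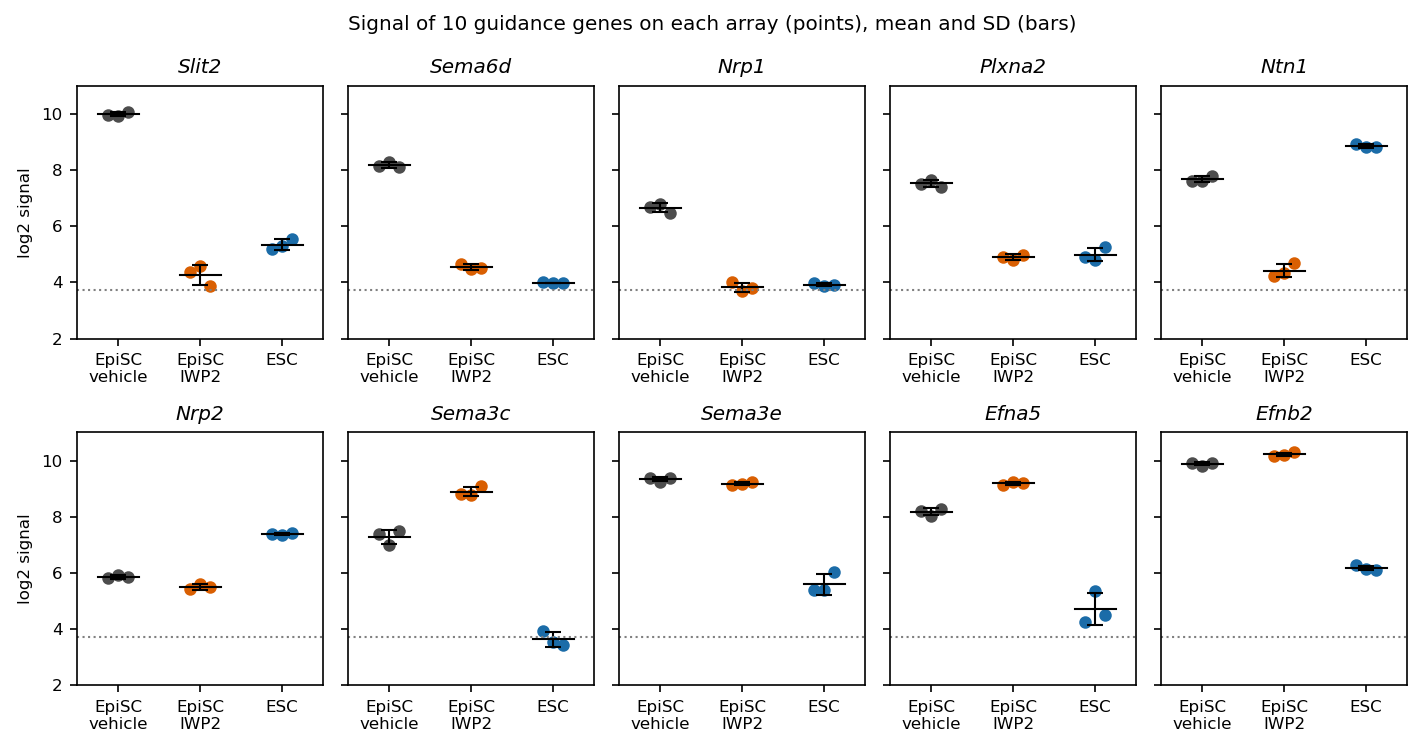
Log2 signal of 10 members on each of the 9 arrays, with the mean and SD of 3 arrays per group; the dotted line is the lower quartile of all values, 3.72. Slit2, Sema6d, Nrp1 and Plxna2 are high with vehicle alone, Ntn1 is low with IWP2 alone, and Sema3c, Sema3e, Efna5 and Efnb2 are low in ESCs alone.

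Among the semaphorin, plexin and neuropilin genes, 5 of 15 fell with IWP2, 3 rose and 7 were not called, and the median was -0.26. In ESCs 10 were lower than with vehicle and 2 higher, with a median of -0.94. That is 53.3% called with IWP2 and 80% for ESC minus vehicle, against 33.5% and 66.6% of all genes. The largest falls with IWP2 were those of a ligand, a plexin and a neuropilin. Sema6d, a transmembrane semaphorin, read 8.14, 8.30 and 8.12 with vehicle, 4.66, 4.47 and 4.50 with IWP2, and in ESCs at a mean of 3.99 ± 0.003 (SD, n = 3). Vehicle arrays stood far above the rest, and IWP2 arrays slightly above ESC arrays. The differences from vehicle were -3.64 ± 0.071 (SE, limma adjusted p = 9.28e-10) and -4.19 (limma adjusted p = 2.44e-11). With an offset of 32 the second was -2.75. The other 3 Sema6d probe sets had group means of 3.36 to 4.30, near the floor, and the mean of all 4 gave -1.06 and -1.12, so the values rest on the probe set used.

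Plxna2, a plexin receptor for class 3 and class 6 semaphorins, read 7.51, 7.66 and 7.41 with vehicle, 4.92, 4.80 and 4.99 with IWP2, and 4.90, 4.80 and 5.26 in ESCs. Vehicle was high, and the other 2 groups overlapped. The fall with IWP2 was 2.63 ± 0.117 (SE, limma adjusted p = 1.78e-07), ESC minus vehicle was -2.54 (limma adjusted p = 2.88e-08) and ESC minus IWP2 was 0.09 (limma adjusted p = 0.541). All 4 of its probe sets fell with IWP2 (-2.97 to -1.49).

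Nrp1, the neuropilin that is also a co-receptor for VEGF, read 6.70, 6.79 and 6.48 with vehicle, 4.01, 3.68 and 3.81 with IWP2, and 3.97, 3.87 and 3.92 in ESCs. It was close to the floor in both lower groups, which overlapped. Nrp1 fell by 2.82 ± 0.099 (SE) with IWP2 (limma adjusted p = 3.31e-08), or by 1.52 with an offset of 32, and ESC minus vehicle was -2.74 (limma adjusted p = 4.76e-09; -1.50 with that offset). All 4 of its probe sets fell with IWP2 (-4.04 to -1.12).

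Nrp2, its paralogue, was the semaphorin co-receptor that was high in ESCs. Its signal was 5.80, 5.93 and 5.85 with vehicle, 5.41, 5.61 and 5.48 with IWP2, and 7.39, 7.34 and 7.43 in ESCs. No groups overlapped, and IWP2 was lowest. The differences were -0.36 ± 0.066 (SE, limma adjusted p = 0.00235) with IWP2, 1.53 for ESC minus vehicle (limma adjusted p = 1.82e-08) and 1.88 for ESC minus IWP2 (limma adjusted p = 3.55e-09). Of the 3 other probe sets, 2 fell with IWP2, by 1.25 and 1.43, and 1 was not called (-0.13), and the mean of all 4 gave -0.79, while an offset of 32 gave -0.22. In these 3, ESC minus vehicle was 1.28 to 2.84. Nrp1 and Nrp2 thus lay on opposite sides of vehicle EpiSCs in ESCs.

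Sema3c, a secreted semaphorin, rose with IWP2. Its signal was 7.38, 6.99 and 7.49 with vehicle, 8.80, 8.79 and 9.08 with IWP2, and 3.93, 3.54 and 3.42 in ESCs. IWP2 was highest and ESCs were at the floor, without overlap. The rise was 1.60 ± 0.160 (SE, limma adjusted p = 4.91e-05), and 1.64 in the other probe set. ESC minus vehicle was -3.66 (limma adjusted p = 1.9e-08) and ESC minus IWP2 was -5.26, which is 38.3-fold lower. The former was -2.08 with an offset of 32 and -2.38 as the mean of both probe sets.

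Sema3e, whose product binds Plxnd1 directly, separated EpiSCs from ESCs and showed no call with IWP2. It read 9.37, 9.24 and 9.37 with vehicle, 9.12, 9.15 and 9.25 with IWP2, and 5.37, 5.38 and 6.02 in ESCs, where the EpiSC groups overlapped and ESCs were low. IWP2 minus vehicle was -0.15 ± 0.150 (SE, limma adjusted p = 0.49) and ESC minus vehicle was -3.74 (limma adjusted p = 1.01e-08). Its receptor gene Plxnd1 read 6.65, 6.41 and 6.68 with vehicle, 6.26, 6.20 and 6.42 with IWP2, and 4.63, 4.46 and 4.24 in ESCs. This is the same arrangement, with a difference of -0.28 with IWP2 close to the threshold (limma adjusted p = 0.0765). It was called without vehicle replicate 2 (-0.37) or ESC replicate 3 (-0.28), with an offset of 32 (-0.21), without genes of low signal (-0.28) and from the compared arrays alone (-0.28). For Plxnd1, ESC minus vehicle was -2.13 (-1.25 with an offset of 32).

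Plxnb2, a plexin for class 4 semaphorins, read 8.60, 8.49 and 8.61 with vehicle, 9.25, 9.02 and 9.02 with IWP2, and 7.53, 7.64 and 7.71 in ESCs. It rose with IWP2 by 0.53 ± 0.080 (SE, limma adjusted p = 0.000732) and was lower in ESCs than with vehicle by 0.94. No groups overlapped. Sema4d, a ligand of B plexins, rose by 0.25 ± 0.071 (SE, limma adjusted p = 0.0213), which was not called without vehicle replicate 1 (0.21) or 3 (0.23) or without IWP2 replicate 1 (0.24) or 2 (0.24), and was 0.59 higher in ESCs than with vehicle.

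The remaining semaphorin and plexin members changed little with the probe sets used. Sema5a, at means of 4.41, 4.08 and 3.18 in vehicle EpiSCs, IWP2-treated EpiSCs and ESCs, fell with IWP2 (-0.33, limma adjusted p = 0.0424). That call was lost without vehicle replicate 1 (-0.33) or 3 (-0.26), without IWP2 replicate 1 (-0.31) or 3 (-0.29), with median centring (-0.32) and by averaging its probe sets (-0.19), and an offset of 32 gave -0.12. ESC minus vehicle was -1.23 for Sema5a, or -0.38 with that offset and -0.70 as that mean. Sema3a, Sema3f, Sema6a, Plxna1 and Plxnb1 were not called with IWP2, with differences of -0.34 to -0.01 in the fit described. Other settings called 4 of these 5, all but Plxna1. Averaging the probe sets called Sema3a (-0.46), Sema3f (-0.32), Sema6a (-0.69) and Plxnb1 (-0.28), and leaving out genes of low signal called Sema3f, Sema6a and Plxnb1. Plxnb1 was also called without vehicle replicate 1 (-0.21) and with an offset of 32 (-0.15). Sema6a was also called without ESC replicate 3 (-0.34), from the compared arrays alone and with trended, robust variances, and Sema3f with those variances and with an offset of 32 (-0.16). For ESC minus vehicle Sema3a (-0.23, not called) was called without ESC replicate 3 (-0.37), with cyclic loess (-0.39) and by averaging its probe sets (-0.39). Plxna1 had means of 7.43, 7.41 and 7.44.

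The probe sets of Sema3a, Sema6a, Plxnb1 and Sema3f differed among themselves. A second Sema3a probe set was called at -0.97 with IWP2 (limma adjusted p = 0.00239 among 34945 probe sets) and at -0.76 for ESC minus vehicle, where the used set was not called. For Sema6a, a transmembrane semaphorin, the used probe set gave -0.34 with IWP2 (limma adjusted p = 0.074) and -0.35 for ESC minus vehicle (limma adjusted p = 0.0351). The latter was not called without vehicle replicate 1 (-0.38) or 2 (-0.26) or without ESC replicate 3 (-0.19), nor in a fit of the compared arrays alone, and an offset of 32 gave -0.21. The other 2 Sema6a probe sets changed by -0.60 and -1.12 with IWP2 and by -1.30 and -2.76 in ESCs against vehicle, all called, with group means as high as 6.57. For Plxnb1 ESC minus vehicle was -0.32 in the used probe set and -2.21 in the other probe set. For Sema3f IWP2 minus vehicle was -0.17 and not called in the used probe set, which ends in _x_at, and the other 2 fell, by 0.35 and 0.45, each by limma among 34945 probe sets.

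**Figure D3:**
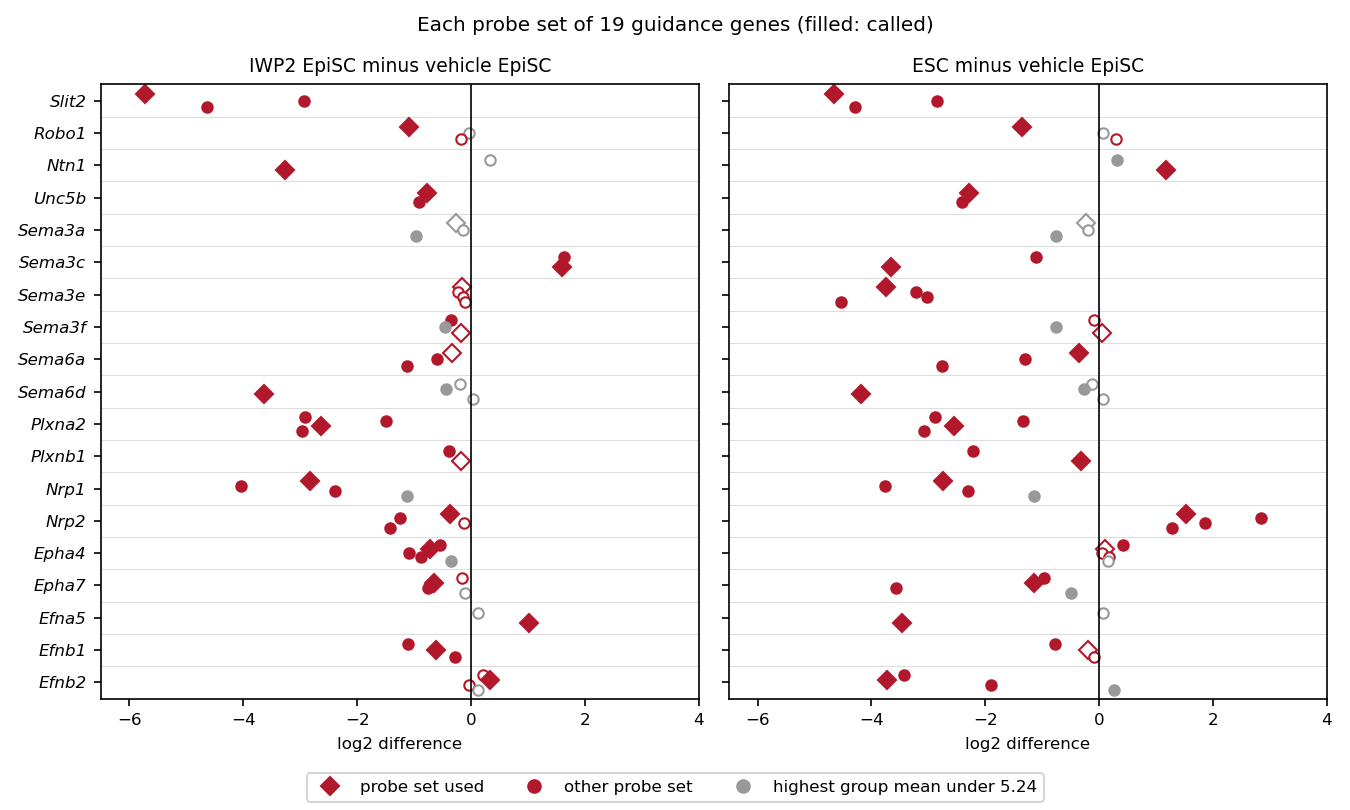
Log2 differences of each probe set of 19 members with several probe sets, IWP2 minus vehicle on the left and ESC minus vehicle on the right; diamonds are the probe sets used, grey points have no group mean at or above 5.24, and filled points were called among all probe sets with 1 symbol. The 4 Plxna2 probe sets and the 4 Nrp1 probe sets all lie at -1.12 or below in both panels, while those of Sema6a, Sema6d and Plxnb1 spread widely.

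The Eph/ephrin subgroup changed in many members but by small amounts with IWP2. Among the 17 genes measured there were 9 falls and 3 rises, with 5 not called and a median of -0.40, and by at least 2-fold 1 fell and 1 rose. In ESCs 12 were lower than with vehicle, 5 of them by at least 2-fold, and 1 was higher, with a median of -0.49. The shares called were 70.6% with IWP2 and 76.5% for ESC minus vehicle, against 33.5% and 66.6% of all genes. By at least 2-fold, 2.81% of all genes fell and 0.901% rose with IWP2, and 9.63% were lower in ESCs than with vehicle. Among the EphA receptors, 4 of 6 fell with IWP2 and 0 rose, where 16.8% of all genes fell and 16.6% rose. Epha2, an Eph receptor of epithelia and of the early embryo, read 8.73, 8.81 and 8.56 with vehicle, 7.57, 7.66 and 7.58 with IWP2, and 8.21, 8.20 and 8.21 in ESCs. ESCs lay between the EpiSC groups with no overlap. Epha2 fell by 1.09 ± 0.069 (SE) with IWP2 (limma adjusted p = 2.18e-06), and ESC minus vehicle was -0.49 (limma adjusted p = 0.000147).

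Epha4, which binds ephrins of both classes, also fell, from a mean of 7.45 ± 0.245 to 6.73 ± 0.068 (SD, n = 3 arrays; limma adjusted p = 0.000749), and had a mean of 7.56 ± 0.069 in ESCs. ESC minus vehicle (0.11) was called only without vehicle replicate 3 (0.25), or as the mean of its probe sets (0.18). Its other 4 probe sets all fell with IWP2, by 0.35 to 1.08. Epha1 fell by 0.85 ± 0.149 (SE, limma adjusted p = 0.00177) and had equal means of 4.99 with IWP2 and in ESCs, and with an offset of 32 the fall was 0.48. Its ESC minus vehicle difference was -0.85, or -0.45 as the mean of its probe sets. The other Epha1 probe sets, at -0.17 and -0.32, were not called there. Epha7 read 7.01, 7.04 and 6.95 with vehicle, 6.30, 6.50 and 6.26 with IWP2, and 6.31, 5.39 and 5.88 in ESCs, where the last 2 groups overlapped.

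The Epha7 fall with IWP2 (-0.65 ± 0.186 SE, limma adjusted p = 0.0225) was not called without vehicle replicate 1 (-0.65) or 2 (-0.63) or without IWP2 replicate 1 (-0.62) or 3 (-0.60). As the mean of its 4 probe sets it was -0.42 and called. ESC minus vehicle was -1.14 for Epha7 and -3.56 in another of its probe sets. The smaller ESC minus IWP2 difference (-0.49, limma adjusted p = 0.0413) was called in the fit of all arrays and without ESC replicate 1, but in no fit that left out another array, nor with cyclic loess (-0.44) or from the compared arrays alone (-0.49). As the mean of its probe sets it was -1.12 and called (limma adjusted p = 1.22e-06). Without ESC replicate 2 it was -0.26, and without the other 7 in turn it lay between -0.54 and -0.42. Epha3 and Epha5 stayed under the floor, with no group mean above 3.40, and neither was called in the fit described. Epha5 was called with IWP2 without vehicle replicate 1 (0.36) and by averaging its probe sets (0.21), and for ESC minus vehicle without vehicle replicate 1 (0.38) and with median centring (0.27).

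Of the EphB receptors, Ephb1 rose with IWP2. Its signal was 5.24, 5.46 and 5.31 with vehicle, 6.33, 6.24 and 6.14 with IWP2, and 5.04, 4.59 and 4.48 in ESCs, with IWP2 highest, ESCs lowest and no overlap. The rise was 0.90 ± 0.132 (SE, limma adjusted p = 0.000622), or 0.57 with an offset of 32, and ESC minus vehicle was -0.63 (-0.31 with that offset). Ephb3 and Ephb4 were not called with IWP2 (0.12 and 0.20). In ESCs Ephb3 was higher than with vehicle by 0.34, or 0.22 without ESC replicate 3, and Ephb4 was lower (-0.40).

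Of the 8 ephrins, 4 were at least 2-fold lower in ESCs than with vehicle (against 9.63% of all genes), namely Efna1, Efna2, Efna5 and Efnb2. Efna5, a lipid-anchored ephrin, read 8.19, 8.03 and 8.28 with vehicle, 9.12, 9.24 and 9.21 with IWP2, and 4.26, 5.35 and 4.49 in ESCs. IWP2 was highest and ESCs were far lower, without overlap. The rise with IWP2 was 1.02 ± 0.225 (SE, limma adjusted p = 0.00641), ESC minus vehicle was -3.47 (limma adjusted p = 3.83e-07) and ESC minus IWP2 was -4.49 (limma adjusted p = 5.08e-08). A second probe set stayed at 3.53 to 3.66, so the mean of both gave 0.57, -1.70 and -2.28.

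Efnb2, the transmembrane ephrin known as a mark of arteries, read 9.92, 9.82 and 9.92 with vehicle, 10.17, 10.19 and 10.29 with IWP2, and 6.26, 6.14 and 6.11 in ESCs. The EpiSC groups differed little beside the gap to ESCs, and no groups overlapped. ESC minus vehicle was -3.72 ± 0.063 (SE, limma adjusted p = 2.48e-11), which is 13.1-fold lower, and -2.19 as the mean of its 4 probe sets. The rise with IWP2 was 0.33 ± 0.063 (SE, limma adjusted p = 0.00301), and 0.16 and not called as that mean. An Efnb2 probe set near the floor, with group means of 3.68 to 3.94, was called higher in ESCs than with vehicle. Its difference was 0.26 (limma adjusted p = 0.0108 among 34945 probe sets).

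Efna1 and Efna2 were also lower in ESCs. Efna1 read 6.67, 6.11 and 6.89 with vehicle, 6.05, 6.50 and 6.71 with IWP2, and 4.96, 5.10 and 5.33 in ESCs, with the EpiSC groups overlapping. Its difference was -0.14 ± 0.213 (SE, limma adjusted p = 0.664) with IWP2 and -1.43 for ESC minus vehicle (limma adjusted p = 0.000207; -0.92 with an offset of 32). Efna2 read 7.88, 7.99 and 7.74 with vehicle, 7.49, 7.54 and 7.39 with IWP2, and 6.28, 5.94 and 5.66 in ESCs. The 3 groups stepped down without overlap, with ESC minus vehicle at -1.91 (limma adjusted p = 7.63e-07; -1.21 as the mean of both probe sets). The fall of Efna2 with IWP2 (-0.40, limma adjusted p = 0.0466) was not called without vehicle replicate 1 (-0.39) or 2 (-0.34), IWP2 replicate 1 (-0.41), 2 (-0.43) or 3 (-0.36), or ESC replicate 2 (-0.40), or with median centring (-0.38).

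The other 4 ephrins fell with IWP2, Efna3 by 0.54, Efna4 by 0.63, Efnb1 by 0.62 and Efnb3 by 0.64, with limma adjusted p of 0.00255 or smaller. Their standard errors were 0.061 to 0.116. Against vehicle, ESCs were lower in Efna3 (-0.46), Efna4 (-0.28) and Efnb3 (-0.65). Efnb1, which is X-linked, was not called there with the probe set used (-0.20, limma adjusted p = 0.159). The mean of its probe sets gave -0.35 and was called (limma adjusted p = 0.00142). Another Efnb1 probe set was called at -0.78 (limma adjusted p = 0.00457 among 34945 probe sets), and the last was not (-0.09). For Efna3 and Efnb3, ESC minus IWP2 was 0.07 and -0.01, not called.

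By role, 10 of 21 ligands fell and 5 rose with IWP2, and 9 of 21 receptors fell and 2 rose, where 16.8% of all genes fell and 16.6% rose. In ESCs 15 ligands were lower than with vehicle and 2 higher, and 12 receptors were lower and 4 higher. That is 81% of ligands and 76.2% of receptors called, against 66.6% of all genes (27.9% lower and 38.7% higher). The median difference for ESC minus vehicle was -1.07 for ligands and -0.40 for receptors, and the difference between these was not tested.

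A second list held 60 other genes of these pathways, further ligands, receptors and intracellular partners, and all were measured. With IWP2 13 rose and 9 fell (22 called, 36.7% of the list against 33.5% of all genes), with a median of 0.07. In ESCs 23 were higher and 18 lower than with vehicle (41 called, 68.3% of the list against 66.6% of all genes). By at least 2-fold with IWP2, 2 fell and 1 rose. Flrt3, a membrane protein that binds Unc5 receptors and marks the anterior mesendoderm, fell from 8.87 to 5.44 (-3.43, limma adjusted p = 7.6e-09) and was at 5.12 in ESCs. Ablim1, an actin-binding protein of the netrin pathway, fell by 1.11, and Crmp1, an effector of semaphorin signals, rose by 1.13 and had a mean of 5.16 in ESCs against 8.40 with vehicle. Its paralogues differed. Dpysl2 rose by 0.58 with IWP2 and was 2.55 lower in ESCs than with vehicle. Dpysl4 rose by 0.60 with IWP2 and was 1.02 higher in ESCs than with vehicle. Dpysl3 and Dpysl5 were not called with IWP2 (0.01 and 0.25) and were lower in ESCs than with vehicle (-0.86 and -1.29).

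Markers of other cell types moved beside these members. All 9 measured endoderm and midline markers fell with IWP2, with differences of -6.98 to -3.35, Foxa2 and Shh among them. Their summed linear signal was 6620 to 7070 with vehicle, 168 to 180 with IWP2 and 208 to 216 in ESCs. Slit2, Slit3, Sema6d, Plxna2, Nrp1 and Flrt3 were high and low on the same arrays as these markers. Ntn1 was not, being high in ESCs. Other members, such as Robo1, Epha1, Efna3 and Efnb3, were also highest with vehicle without overlap, with differences of -1.08 to -0.54 with IWP2. In these bulk samples, fewer cells of a type and less RNA per cell cannot be told apart, and the part of these markers in the members' falls was not tested.

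Of 9 measured neuronal and neural progenitor markers, 4 rose with IWP2 and 0 fell, with a summed signal of 986 to 1070 with vehicle, 1300 to 1440 with IWP2 and 721 to 768 in ESCs. For ESC minus vehicle 3 of them were higher and 3 lower. A linear sum follows the markers of highest signal. Here that was Nes in both EpiSC groups, with means of 8.90 with vehicle, 9.11 with IWP2 and 6.67 in ESCs. Dcx and Neurog2 had means of 3.44 to 3.88 in all groups, near the floor. Of 6 neural crest markers, 2 rose and 1 fell, with sums of 462 to 509, 964 to 1010 and 443 to 464. Ets1 had the highest signal of the 6 in both EpiSC groups, with means of 7.78 with vehicle and 9.42 with IWP2, and so weighs most in those sums. For ESC minus vehicle 4 of these 6 were higher, Foxd3 (1.49), Tfap2a (0.67), Snai2 (0.29) and Sox10 (0.27), and 2 were lower, Ets1 (-4.30) and Pax3 (-0.24). Of 7 fibroblast and feeder markers, 2 rose, Dcn (0.78) and Thy1 (0.72), and 3 fell, Col3a1 (-2.30), Postn (-1.75) and Col1a2 (-0.90). The sums were 554 to 783, 376 to 436 and 181 to 189, and Lum stayed between 3.57 and 3.98. Col1a2 had the highest signal in both EpiSC groups, with means of 8.48 with vehicle and 7.58 with IWP2. Like the endoderm and midline markers, Col3a1 (6.63, 4.34 and 3.83) and Postn (5.49, 3.73 and 3.73) were highest with vehicle. Of 7 endothelial and mesodermal markers, 2 rose and 0 fell, with sums of 155 to 173, 153 to 168 and 261 to 275, and Cdh5 stayed under the floor in every group. The part of these markers in the members' differences was not tested either.

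**Figure D4:**
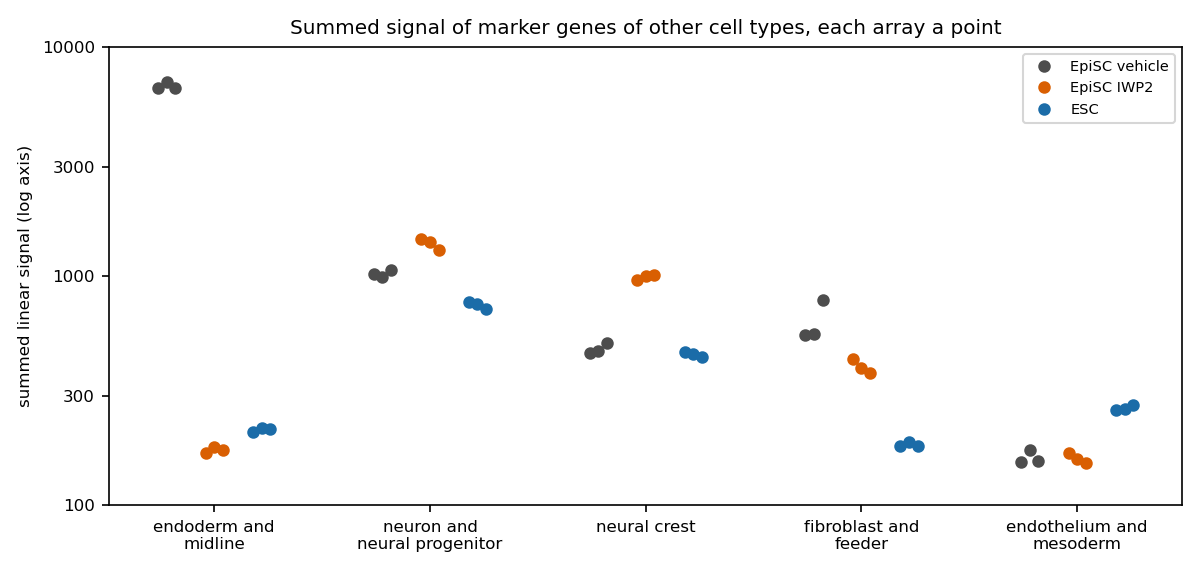
Summed linear signal of 5 marker lists of other cell types on each of the 9 arrays, on a log axis, with 3 arrays per group. The endoderm and midline list is at 6620 to 7070 with vehicle and at 168 to 216 on all other arrays, while the other 4 lists differ far less between groups.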

How the data were processed

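RNA of 9 cultures, 3 per group, was hybridised to Affymetrix arrays, per the labels' protocols. The authors deposited log2 values for 45101 probe sets, made, per the submitters' processing notes, with RMA. Limma is also named there, and neither has a version. Since RMA equalises the distributions of arrays, these values cannot show a change in RNA content of the cells, and they carry no detection calls. Of the probe sets, 34945 had 1 gene symbol in the platform annotation, 932 several and 9160 none, and 64 controls were left out. Group means were fitted to all 9 arrays with limma 3.58.1 in R 4.3.3 (lmFit, eBayes, two-sided, with 6 residual degrees of freedom that moderation raised to 9.58), with Benjamini-Hochberg adjustment over 18193 genes and calls at an adjusted p under 0.05. The fit was tested on simulated data. The array number limits the precision, and the median standard error of a member's difference was 0.100.

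Members and lists were chosen with earlier results of these data known. Array values are printed for the 21 members that were called with at least 2-fold difference in a comparison, without overlap and with the higher mean at or above 5.24, the median of all values, and other members by means or differences. The fit of every probe set and the sorting into ligands and receptors were chosen after seeing the data. No replicate block was used. Promoter and microRNA sequences are from RefSeq on GRCm38.p6.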

Additional observations from a re-analysis of the deposited data

How the results depend on the processing

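Counts of called members, in each direction and in each subgroup, stayed within 1.5 times the values reported under the 10 other settings and without each array in turn. Those settings were averaging all probe sets of a gene, dropping _x_at and _s_at probe sets, dropping genes of low signal, an offset of 32, median centring, cyclic loess, trended and robust variances, fits of the compared arrays alone, a replicate block, and an adjusted p under 0.01. Without single arrays, 16 to 21 members fell and 5 to 7 rose with IWP2, 26 to 27 were lower and 6 to 7 higher for ESC minus vehicle, and 14 to 15 were lower and 12 to 13 higher for ESC minus IWP2, where the fit of all arrays gave 16 and 12. With the replicate block, 19 fell and 8 rose with IWP2, 27 were lower and 7 higher for ESC minus vehicle, and 15 were lower and 12 higher for ESC minus IWP2. Of 2370 single differences under these settings, 2259 stayed on the same side of the threshold, 60 lost a call and 49 gained one. In 2 the sign turned with a call on either side, both as the mean of the probe sets: Sema3f for ESC minus vehicle became -0.26 and was called, and Robo1 for ESC minus IWP2 became 0.09 and was not called. The cause was not tested. The other sign turns were in differences called under neither setting. Deviations of arrays with the same replicate number correlated between -0.06 and 0.05. Such values cannot show whether cultures of the same number were grown or processed together, which the labels do not state. The replicate block ended the calls of Sema5a with IWP2 (-0.33) and of Epha7 for ESC minus IWP2 (-0.49). It called Sema6a with IWP2 (-0.34), and Epha5 with IWP2 (0.23) and for ESC minus vehicle (0.25). An offset shrinks differences of low signals by its construction, and how far the array floor limits the measured differences was not tested.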
